A study of Mus musculus with 4 samples.

Results

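The stem cell heptad is a set of 7 transcription factor genes, Gata2, Runx1, Tal1, Lyl1, Lmo2, Erg and Fli1, and it was followed here in bulk RNA sequencing of LSK cells from aged mice. The members were taken by gene symbol, and all 7 were found among the 24421 genes of the count table. LSK cells are a sorted marrow fraction without lineage markers and with Sca1 and Kit on the surface, in which stem cells and early progenitors are found. The comparison was between 2 libraries of wild-type (WT) mice and 2 libraries of p53R248W/+ mice, which carry a missense mutation of p53 on 1 allele, all from bone marrow of animals 13 to 15 months old. No treatment, strain or pooling of animals is given in the sources used here, and the p-values therefore cover only the spread from library to library, which may be technical.

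The heptad factors bind DNA side by side at enhancers of blood stem and progenitor cells, and they also occupy each other's regulatory elements. Gata2 is a zinc finger factor that reads GATA sites, and Runx1 reads Runx sites as the DNA-binding partner of the Cbfb protein. Tal1 and Lyl1 are related basic helix-loop-helix (bHLH) factors that bind E-boxes as dimers with E proteins such as Tcf3, Tcf4 and Tcf12. Lmo2 does not bind DNA and bridges the bHLH dimer and Gata2, in a complex with the adaptor Ldb1. Erg and Fli1 are close relatives of the ETS family. In the marrow these genes are known for stem cell maintenance, and several of them are also used by megakaryocytes, mast cells and endothelial cells.

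The starts of the members were examined for the sequences the heptad proteins read, since the factors are known to act on one another's genes. RefSeq promoter windows (build GRCm38.p6, the assembly also called mm10) of 250 bases before and 50 bases after a transcript start were matched for 5 members by symbol, namely Gata2, Runx1, Tal1, Lyl1 and Erg, with 10 windows in all. Short motifs of 4 kinds were searched on both strands: GATAA for GATA factors, CCGGAA for ETS factors, CAGNTG for bHLH dimers and TGNGGT for Runx. GATAA was present in 2 of the 10 windows, against 25.4% of the 32817 promoter windows of this length, CCGGAA in 2 of 10 against 14.9%, CAGNTG in 5 of 10 against 51.4%, and TGNGGT in 6 of 10 against 45.8%. The windows of 1 gene are not independent of each other, and a match is a description of the letters, not evidence of binding. The 250 bases upstream of the start are printed below for the windows with matches to more than 1 kind of motif. Matches lie in capitals and the strand is that of the gene.
Lyl1, chr8:84701207-84701456, plus strand: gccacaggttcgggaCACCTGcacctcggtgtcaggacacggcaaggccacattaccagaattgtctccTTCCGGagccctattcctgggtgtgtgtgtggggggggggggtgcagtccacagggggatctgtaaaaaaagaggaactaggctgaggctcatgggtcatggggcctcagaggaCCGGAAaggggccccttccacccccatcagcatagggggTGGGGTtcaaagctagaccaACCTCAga
Runx1 distal start, chr16:92826075-92826324, minus strand: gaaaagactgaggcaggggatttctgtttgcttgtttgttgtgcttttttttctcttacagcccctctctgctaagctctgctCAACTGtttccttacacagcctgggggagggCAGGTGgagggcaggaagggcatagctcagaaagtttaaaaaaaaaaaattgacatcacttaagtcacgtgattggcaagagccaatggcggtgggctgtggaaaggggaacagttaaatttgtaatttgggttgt
Erg innermost start, chr16:95459349-95459598, minus strand: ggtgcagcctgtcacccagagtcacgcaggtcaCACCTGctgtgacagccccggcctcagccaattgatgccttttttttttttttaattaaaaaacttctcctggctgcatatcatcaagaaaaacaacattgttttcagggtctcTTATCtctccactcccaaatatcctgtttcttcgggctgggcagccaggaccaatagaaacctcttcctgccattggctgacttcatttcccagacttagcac
Tal1 first start, chr4:115056176-115056425, plus strand: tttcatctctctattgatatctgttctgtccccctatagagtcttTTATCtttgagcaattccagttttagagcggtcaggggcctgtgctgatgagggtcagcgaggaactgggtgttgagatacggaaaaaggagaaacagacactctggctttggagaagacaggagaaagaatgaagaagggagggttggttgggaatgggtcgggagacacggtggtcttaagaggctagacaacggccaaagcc
Upstream of Lyl1 there were 2 ETS, 1 bHLH and 2 Runx matches and no GATAA. Upstream of the distal Runx1 start there were 2 bHLH matches, and its 3 Runx matches lay in the bases just after the start. The Erg stretch held 1 bHLH match and 1 GATAA match on the opposite strand, and 1 Runx match of its window lay just after the start. The Tal1 stretch held 1 GATAA match on the opposite strand, and 1 bHLH match of its window lay just after the start. Gata2 has a distal start at position 88193891 of chromosome 6 and a proximal start at 88198664. The counted exons of Gata2 began at the proximal start, so reads from the distal first exon do not enter its count.

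All 7 members were well above the detection floor in every library. Total counts ranged from 12111126 to 14820759 per library, and the limit that 3 counts set lay at 0.202 to 0.248 CPM. CPM are counts scaled by the effective size of their library, and values are given for replicate 1 and then replicate 2 of a genotype. This floor covers counting error only, because PCR copies are not independent molecules. The 7 genes together took 39591 and 41034 counts in WT and 44376 and 31396 counts in p53R248W/+. Those sums were 2761 and 2878 CPM in the WT pair and 2993 and 2593 CPM in the mutant pair, with both the highest and the lowest sum in the mutant group. The fraction carried the RNA of its sort markers and of stem cells: Kit, the receptor tyrosine kinase used in the sort, was at 911 to 1182 CPM, the stem cell factor gene Hlf at 929 to 1265 CPM, and Ly6a, which encodes Sca1, at 40.2 to 82.9 CPM. Pax5 of B cells, Cd3g of T cells, the globin genes Hba-a1, Hba-a2 and Hbb-bt, the stromal gene Cxcl12, the mast cell gene Mcpt4 and the platelet gene Gp6 were at 0 counts in all libraries, while other markers of the same cell types were present. How reads with several alignments were counted is not given. For genes with close copies, such as the globin genes, 0 counts therefore need not mean that the RNA was absent. The 8 T and NK cell markers summed to 69.7 and 90.1 CPM in the WT pair and 82.8 and 69.8 CPM in the mutant pair, led by Klrb1c at 43.6 to 58.1 CPM and Nkg7 at 12.4 to 32.0 CPM, and of 5 tested 2 were on the positive side of 0. The 8 mast cell and basophil markers summed to 41.1 and 24.8 against 29.7 and 61.5 CPM, with Cpa3 at 15.4 to 27.4 CPM, and 5 of 6 tested were on the positive side. Among them Mcpt8, a basophil protease, was at 0.837 and 1.82 CPM in the WT pair and at 2.83 and 13.2 CPM in the mutant pair (unadjusted p = 0.0341, adjusted p = 0.824, edgeR quasi-likelihood test). The 6 stromal markers summed to 47.0 and 36.9 against 84.2 and 38.8 CPM, led by Pdgfrb at 20.9 to 45.6 CPM and Col1a2 at 3.47 to 32.8 CPM, and both tested genes were on the positive side. Mpo, the peroxidase of granulocyte and monocyte precursors, was present at 314 to 1273 CPM and was highest in WT replicate 1. Elane was also highest there, while Ltf, S100a8, S100a9 and Ngp were lowest there. The 8 granulocyte and monocyte markers, mostly Mpo, summed to 1390 and 378 against 748 and 621 CPM. Of these 6 were on the positive and 2 on the negative side of 0 (median log2 fold change 0.65), and none passed. The 8 B cell marker genes summed to 8.23 and 12.8 CPM in the WT pair and to 45.7 and 24.2 CPM in the mutant pair. All 4 tested B cell markers were higher without overlap in p53R248W/+, as were 16.9% of all tested genes. None of them passed, and none of the T and NK cell, mast cell or stromal markers passed. The part of such cells, or of stem cells, in the values of the members was not tested.

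Levels were compared between genes per kilobase of exon (CPM per kb). Lmo2 was the most abundant member at 481 ± 61.5 CPM per kb (SD over the 4 libraries), which was 3.15 times the mean of Erg, the next gene, at 152 ± 6.92 CPM per kb. Gata2 followed at 107 ± 9.51 and Fli1 at 89.9 ± 12.7 CPM per kb, and the ranges of this pair overlapped. Runx1 at 58.4 ± 3.45 and Tal1 at 58.3 ± 10.7 CPM per kb could not be ordered, and they exchanged places between libraries. Lyl1 was the lowest member in every library at 29.6 ± 2.28 CPM per kb. The other neighbours in this order did not overlap over the 4 libraries, and the order was the same in all 4 apart from the Runx1 and Tal1 exchange. Among the 13296 tested genes Lmo2 stood on average at percentile 99.5 of the level per kb and Lyl1 at percentile 80.7. Exon length is that of all annotated exons together, so a gene with many unused exons is understated on this scale.

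**Figure D1:**
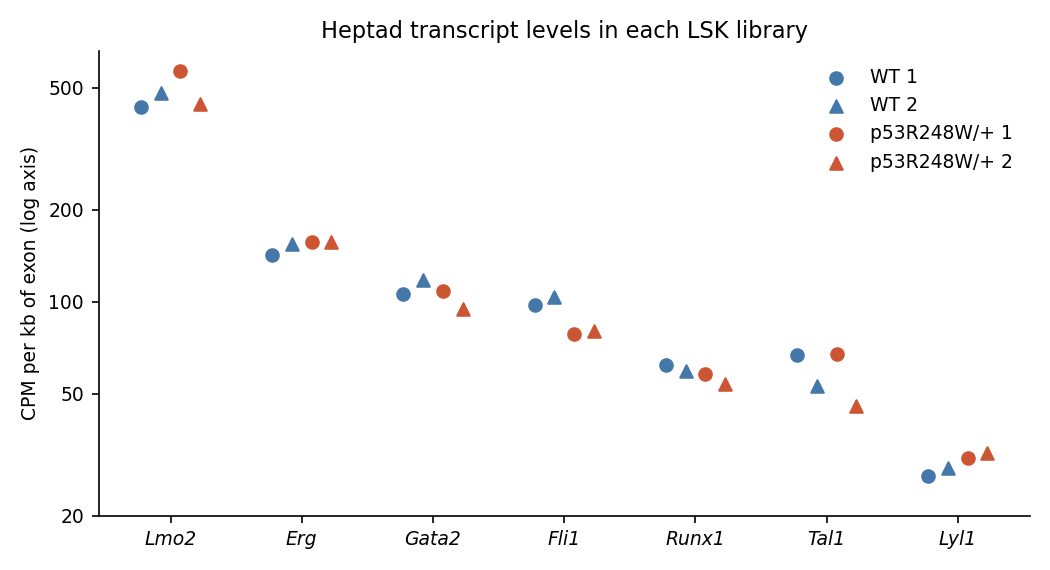
Level of each heptad gene as CPM per kb of exon on a log axis, 1 point per library, blue for WT and red for p53R248W/+, circles for replicate 1 and triangles for replicate 2. Lmo2 lies at 432 to 567 and Lyl1 at 26.9 to 32.0, and Fli1 lies at 97.3 and 104 in WT and at 78.2 and 80.0 in p53R248W/+.

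The question of the design is whether transcripts of aged LSK cells differ where mutant p53 is present. For the heptad, no member passed the threshold of an adjusted p of 0.05 in the edgeR quasi-likelihood test, and none had an unadjusted p under 0.05. Over all tested genes 0 passed (0%), 780 genes, or 5.87%, had an unadjusted p under 0.05, and DESeq2 called 6 genes, none of them a member. The fitted difference was under 0.35 on the log2 scale for every member, 3 genes being higher and 4 lower in p53R248W/+, with a median log2 fold change of -0.08 where that of all tested genes was -8.8e-05. With 1 library left out at a time, the median of the members ran from -0.17 to 0.08. The 95% intervals of the 7 log2 fold changes all lay between -0.71 and 0.84. The values of the genotypes stood apart without overlap in the case of Lyl1 and Erg, both higher, and of Runx1 and Fli1, both lower. Of all tested genes 16.9% were higher and 16.6% lower without overlap, and a count of 2 of 7 in each direction is too small to set the members apart from that background.

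**Figure D2:**
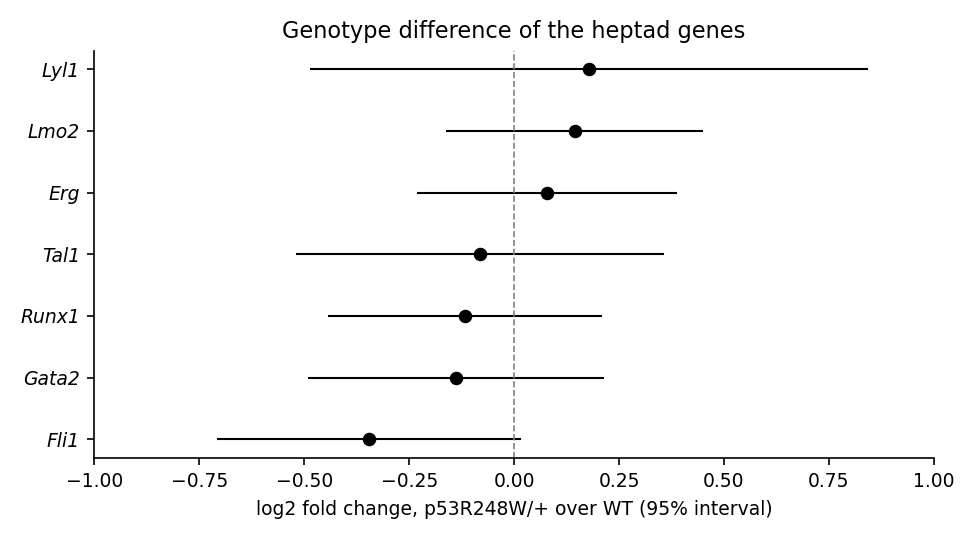
Log2 fold change of p53R248W/+ over WT for each heptad gene (points) with its 95% interval (lines) from the edgeR fit of 2 libraries per genotype. Every interval includes 0, that of Fli1 reaching from -0.71 to 0.01 and that of Lyl1 being the widest.

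Gata2, the GATA factor of stem cells and early progenitors (chromosome 6, 88198664 to 88207032, plus strand, 6 exon blocks in mm10), was at 343 and 381 CPM in the WT pair and at 351 and 306 CPM in the mutant pair. The genotypes overlapped, with the highest value in WT replicate 2 and the lowest in p53R248W/+ replicate 2. The fit gave a log2 fold change of -0.14 ± 0.17 (SE over n = 2 libraries of each genotype, adjusted p = 0.932 in the edgeR quasi-likelihood test) and an interval from -0.49 to 0.21. Leaving out WT replicate 1 gave -0.21, WT replicate 2 -0.06, p53R248W/+ replicate 1 -0.24 and p53R248W/+ replicate 2 -0.05. Gata1, the relative that takes over from Gata2 as erythroid and megakaryocyte cells form, was low. It had 97 and 79 counts in WT and 12 and 2 counts in p53R248W/+, or 6.76 and 5.54 CPM against 0.809 and 0.165 CPM. Both mutant libraries were thus below both WT libraries, and the last value was under the 3-count floor. The fitted log2 fold change of Gata1 was -3.54 ± 1.21 (SE) with an unadjusted p of 0.00850, and it did not pass (adjusted p = 0.824, edgeR quasi-likelihood test). With so few mutant counts this fitted value depends on the prior count and is no bound. The 8 erythroid marker genes, Gata1 among them, summed to 21.3 and 12.9 CPM in the WT pair against 3.44 and 13.3 CPM in the mutant pair, with Klf1, an erythroid factor, at no more than 1.33 CPM, and their part in the Gata1 values was not tested. Gata3, the GATA factor of lymphoid cells, was at 22.7 to 29.7 CPM and overlapped.

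Runx1, the Runx factor required for blood stem cells to form (chromosome 16, 92601466 to 92826074, minus strand, 8 exon blocks), was at 459 and 437 CPM in the WT pair and at 429 and 398 CPM in the mutant pair. Both mutant libraries were below both WT libraries, by a margin smaller than the gap between the replicates. The log2 fold change was -0.12 ± 0.15 (SE; adjusted p = 0.937, edgeR quasi-likelihood test), with an interval from -0.44 to 0.21. It was -0.07 without p53R248W/+ replicate 2, and leaving out 1 library at a time gave -0.17 to -0.07. Cbfb, the partner that stabilises Runx proteins on DNA, was at 269 and 325 CPM in the WT pair and at 225 and 313 CPM in the mutant pair, with overlapping groups. Per kb of exon, Runx1 was at 0.675 and 0.532 times the level of Cbfb in WT and at 0.752 and 0.502 times in p53R248W/+. Runx2, the family member best known from bone, was also present, at 421 and 291 CPM in the WT pair and 409 and 452 CPM in the mutant pair.

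Tal1 was the member that varied most. Tal1, the bHLH factor also called SCL (chromosome 4, 115056426 to 115071755, plus strand, 6 exon blocks), was at 287 and 227 CPM in the WT pair and at 288 and 195 CPM in the mutant pair. It was high in replicate 1 and low in replicate 2 of each genotype, and the groups overlapped. Its replicates differed by 0.34 on the log2 scale in WT and by 0.56 in p53R248W/+, while the fitted genotype difference was -0.08 ± 0.21 (SE; adjusted p = 0.970, edgeR quasi-likelihood test) with an interval from -0.52 to 0.35. The direction turned to 0.10 without WT replicate 1 and to 0.16 without p53R248W/+ replicate 2. The summed level of the 8 endothelial marker genes, a lineage that also uses Tal1, was 319 and 273 CPM in the WT pair and 388 and 310 CPM in the mutant pair. Of the 7 tested endothelial markers 5 were on the positive and 2 on the negative side of 0, and none passed. Pecam1 and Kdr were higher without overlap, as were 16.9% of all tested genes. Pecam1, an adhesion molecule that blood cells share, was at 70.4 and 50.7 CPM in the WT pair and at 104.7 and 100.4 CPM in the mutant pair (unadjusted p = 0.0132, adjusted p = 0.824, edgeR quasi-likelihood test). Kdr, a VEGF receptor, was at 8.16 and 14.9 against 20.4 and 25.3 CPM. Cldn5 and Esam were on the negative side, both with overlap. Cldn5 was at 23.9 and 1.19 CPM in the WT pair and at 4.05 and 1.82 CPM in the mutant pair. Esam was at 36.8 and 38.4 against 40.8 and 23.3 CPM. Tie1 and Tek, which stem cells share, were at 61.5 to 102.8 CPM, while Cdh5, the endothelial cadherin, was at 0 counts in 3 libraries and at 1.82 CPM in p53R248W/+ replicate 1. Whether other cells had a part in the Tal1 values was not tested.

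Lyl1, the bHLH relative of Tal1 that supports adult stem and progenitor cells (chromosome 8, 84701457 to 84704716, plus strand, 4 exon blocks), was at 48.4 and 51.5 CPM in the WT pair and at 55.6 and 57.6 CPM in the mutant pair. Both mutant libraries were above both WT libraries. The log2 fold change was 0.18 ± 0.31 (SE; adjusted p = 0.959, edgeR quasi-likelihood test), with an interval from -0.48 to 0.84, the least precise among the members. Its counts were 694 to 824 per library, and 5 of its exon bases are shared with Nfix on the opposite strand. Per kb, Tal1 was above Lyl1 in every library, at 2.50 and 1.86 times in WT and at 2.18 and 1.43 times in p53R248W/+. These ratios overlapped between genotypes (exact permutation test, two-sided, p = 0.667, where 2 against 2 libraries cannot go below 0.333).

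Lmo2, the bridging LIM protein (chromosome 2, 103957995 to 103981878, plus strand, 5 exon blocks), was at 822 and 916 CPM in the WT pair and at 1078 and 840 CPM in the mutant pair. Only p53R248W/+ replicate 1 stood above the WT libraries, and p53R248W/+ replicate 2 lay between them. The log2 fold change was 0.14 ± 0.14 (SE; adjusted p = 0.907, edgeR quasi-likelihood test), with an interval from -0.16 to 0.45. Leaving out p53R248W/+ replicate 1 gave -0.05 and leaving out p53R248W/+ replicate 2 gave 0.31, so that 1 mutant library decided the direction. Ldb1, the adaptor that holds Lmo2 in the complex, was at 78.4 and 77.0 CPM in the WT pair and at 75.2 and 107.9 CPM in the mutant pair. Per kb of exon, Lmo2 exceeded Ldb1 by 14.7 and 16.7 times in WT and by 20.1 and 10.9 times in p53R248W/+, and the mutant libraries lay on either side of the WT range.

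Erg had the narrowest range of levels among the members. Erg, the ETS factor needed for stem cell maintenance (chromosome 16, 95359169 to 95586593, minus strand, 13 exon blocks), was at 493 and 536 CPM in the WT pair and at 543 and 542 CPM in the mutant pair. Its highest library was 1.10 times its lowest, and both mutant libraries lay just above both WT libraries. The log2 fold change was 0.08 ± 0.15 (SE; adjusted p = 0.961, edgeR quasi-likelihood test), with an interval from -0.23 to 0.39. It was 0.02 (0.0207) without WT replicate 1 and 0.15 (0.146) without WT replicate 2.

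Fli1 had the largest fitted difference among the members. Fli1, the ETS relative of Erg that also drives megakaryocyte genes (chromosome 9, 32422204 to 32541452, minus strand, 9 exon blocks), was at 309 and 330 CPM in the WT pair and at 248.4 and 254 CPM in the mutant pair. Both mutant libraries were below both WT libraries, and the gap between the groups exceeded the gap between replicates of either. The log2 fold change was -0.35 ± 0.17 (SE), a fitted level of 0.787 times WT with an interval from 0.613 to 1.01 times. It did not pass (unadjusted p = 0.0579, adjusted p = 0.824, edgeR quasi-likelihood test), and 52.9% of all tested genes had a smaller absolute fold change. That share includes genes with low counts. The median absolute log2 fold change was 0.32 over all tested genes and 0.17 over the 4545 genes at or above the level of Lyl1. With 1 library left out at a time, the log2 fold change stayed between -0.39 and -0.29. Itga2b and Pf4, which mark megakaryocytes, had lower values beside it. Itga2b, the platelet integrin alpha IIb, was at 84.5 and 65.1 CPM in the WT pair and at 33.7 and 27.8 CPM in the mutant pair, and Pf4, platelet factor 4, was at 7.46 and 23.6 against 3.37 and 5.12 CPM. Of the 6 tested megakaryocyte markers 5 were on the negative side (median log2 fold change -0.07) and none passed. Among these Vwf, Gp9 and Gp1bb were near 0, at log2 fold changes of -0.04, -0.03 and -0.09, and overlapped. Ppbp was on the positive side at 0.38, also with overlap. The sum of the megakaryocyte markers, mostly Vwf, was 586 and 663 CPM in the WT pair against 621 and 486 CPM in the mutant pair, which overlapped, and the defining receptor gene Gp6 was at 0. The part of megakaryocyte-primed cells in the Fli1 difference was not tested, and in bulk RNA fewer cells of a type and less RNA per cell cannot be told apart.

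Erg stood higher against Fli1 in the mutant libraries. Per kb of exon, Erg was at 1.46 and 1.49 times the level of Fli1 in WT and at 2.00 and 1.96 times in p53R248W/+. The replicates of each genotype lay close together and the genotypes did not overlap. For single genes, 16.9% of all tested were higher and 16.6% lower without overlap. Ratios of other pairs were also taken, and among them only Gata2 over Gata1 did not overlap. It was at 29.8 and 40.3 in WT and at 254 and 1087 in p53R248W/+, where Gata1 was near the floor. For Erg over Fli1 the difference of the mean log2 ratio was 0.42 (exact permutation test, two-sided, p = 0.333, the smallest that 2 against 2 libraries can give), so it cannot reach the threshold in this design. The Erg over Fli1 ratio was chosen with the counts known and uses the same values as the fold changes above.

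**Figure D3:**
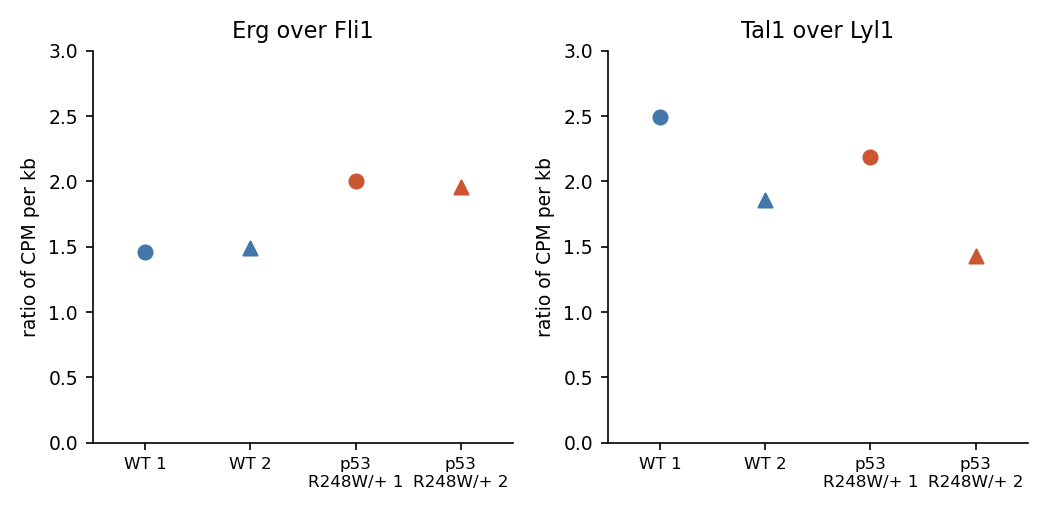
Ratio of CPM per kb within each library for the related pairs Erg over Fli1 (left) and Tal1 over Lyl1 (right), with WT in blue and p53R248W/+ in red. Erg over Fli1 is 1.46 and 1.49 in WT and 2.00 and 1.96 in p53R248W/+, while the Tal1 over Lyl1 ratios of the genotypes overlap.

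The members did not vary together over the libraries. Tal1 and Lmo2 were highest in p53R248W/+ replicate 1, Gata2 and Fli1 in WT replicate 2, Runx1 in WT replicate 1 and Lyl1 in p53R248W/+ replicate 2, while Erg was nearly equal in the mutant libraries. Erg and Lyl1 had the most similar profiles, with a root mean square difference of 0.06 between their log2 CPM values, each centred on its own mean, over 4 libraries. Gata2 and Runx1 followed at 0.09, and Tal1 and Lyl1 were farthest apart at 0.30. The mean profile of the 7 genes was nearly flat, at 0.01 and 0.04 in WT and 0.06 and -0.10 in p53R248W/+. By the same measure, the genes of at least 20 CPM nearest to that mean profile, among 7366 candidates, were Rnps1, Tnpo2, Pigm, Lamp1 and Tab3, at 0.0052 to 0.0159. The median gap between replicates of the members was 0.12 in WT and 0.11 in p53R248W/+ on the log2 scale, where the 4545 genes at or above the level of Lyl1 had 0.24 in both. These sets were not matched in level, because every other member was well above Lyl1. The part of level in the smaller gap was not tested.

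**Figure D4:**
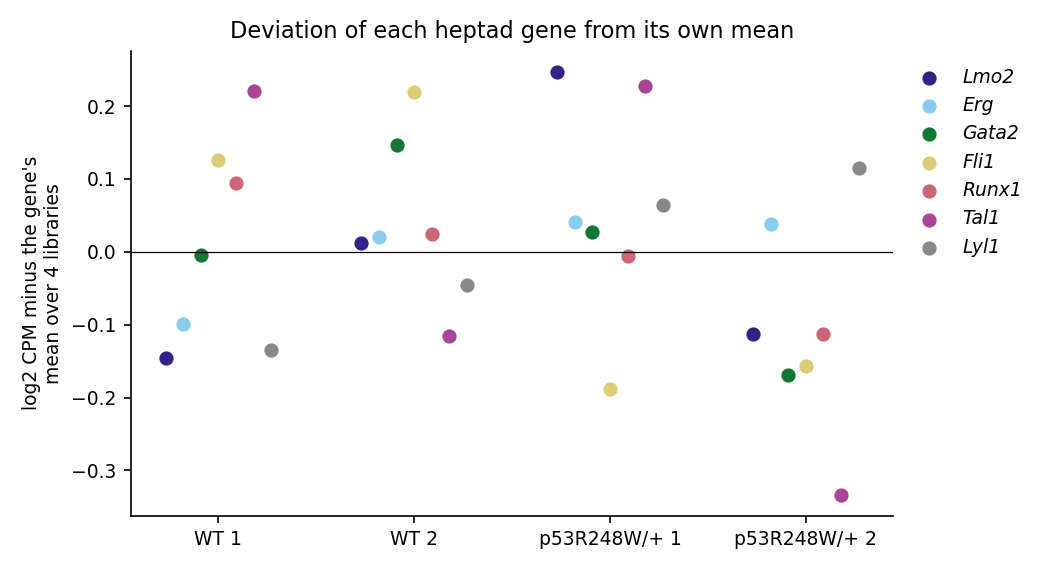
Log2 CPM of each heptad gene minus its mean over the 4 libraries, by library. Fli1 is above 0 in both WT libraries and below 0 in both p53R248W/+ libraries, and Tal1 spans the widest range, from -0.33 to 0.23.

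The proteins that work with the heptad were measured in a list of 22 genes, of which 21 were tested. Of these 13 were on the positive and 8 on the negative side of 0 (median log2 fold change 0.11), and 0 passed in either direction. Over all 13296 tested genes 6647 were on the positive and 6649 on the negative side, and 0 passed. Tcf4, an E protein that pairs with Tal1 and Lyl1, was at 248.1 and 233 CPM in the WT pair and at 288 and 326 CPM in the mutant pair, a log2 fold change of 0.35 ± 0.18 (SE; adjusted p = 0.824, edgeR quasi-likelihood test). The other E protein genes, Tcf3 at 34.8 to 53.1 CPM and Tcf12 at 209 to 258 CPM, overlapped between genotypes. Rcor1, a corepressor of the Kdm1a complex, was at 149 and 128 CPM in the WT pair and at 109 and 104 CPM in the mutant pair, and Cbfa2t3, the Eto2 corepressor of Tal1 complexes, was at 366 and 390 against 338 and 353 CPM. Hdac1 was at 132 to 190 CPM and the acetyltransferase gene Crebbp at 470 to 649 CPM, both with overlap. The Id genes, whose proteins trap E proteins away from DNA, were low. Id2 was at 3.21 and 3.998 CPM in the WT pair and at 3.78 and 14.5 CPM in the mutant pair, a difference set by p53R248W/+ replicate 2, and Id1 and Id3 were at no more than 3.21 CPM.

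Among 21 family relatives 18 were tested, 14 on the positive and 4 on the negative side of 0 (median log2 fold change 0.13). In either direction 0 passed, as over all tested genes. Elk3, an ETS factor, was at 129 and 170 CPM in the WT pair and at 222 and 171 CPM in the mutant pair, and Elk1 was at 10.5 and 17.9 against 21.8 and 20.5 CPM. Ets2 was at 52.6 and 60.2 CPM in the WT pair and at 50.7 and 37.3 CPM in the mutant pair, and Elf2 was at 249 to 272 CPM in all libraries. Etv6, an ETS repressor needed by adult stem cells, had the highest level per kb among these relatives, at 132 CPM per kb, between Gata2 and Erg. Spi1, the myeloid and lymphoid ETS factor PU.1, was at 32.7 and 19.9 CPM in the WT pair and at 15.8 and 33.9 CPM in the mutant pair. Tal2 and Lmo1, the nearest relatives of Tal1 and Lmo2, were at no more than 1.48 CPM and were not tested.

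Of 18 blood genes known to be bound by several heptad factors, all 18 were tested, 9 on each side of 0 (median log2 fold change 0.02). In either direction 0 passed, as over all tested genes. Kit was at 911 and 998 CPM in the WT pair and at 1182 and 1105 CPM in the mutant pair, a log2 fold change of 0.26 ± 0.13 (SE). Nfe2, a megakaryocyte and erythroid factor, was at 76.8 to 124.8 CPM with overlap. Lower values were found for Itga2b, at -1.27 ± 0.34 (SE; unadjusted p = 0.00147, adjusted p = 0.824, edgeR quasi-likelihood test), and for Gfi1, a transcriptional repressor, at 17.6 and 15.2 CPM in the WT pair against 4.79 and 10.9 CPM. Cdk6, a cell cycle kinase, was at 833 and 650 CPM in the WT pair and at 488 and 706 CPM in the mutant pair. Meis1, a homeobox factor of stem cells, was at 354 and 345 against 320 and 318 CPM, a small gap without overlap, and Hhex, Mef2c and Myb overlapped.

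**Figure D5:**
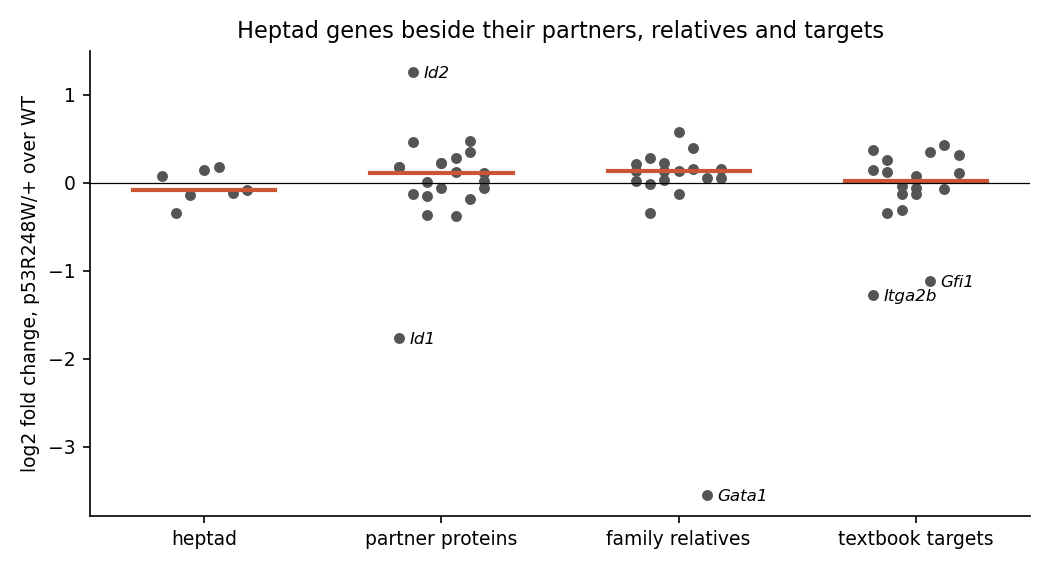
Log2 fold change of p53R248W/+ over WT for each tested gene (points) of the heptad, 21 partner proteins, 18 family relatives and 18 textbook targets, with the median of each list as a red line. The heptad lies within a narrow band around 0, while Gata1, Id1, Id2, Itga2b and Gfi1, all of them at no more than 84.5 CPM, lie more than 1 from it.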

How the data were processed

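Per the submitters' processing notes, the authors used FastQC 0.11.5, STAR 2.7.10a, featureCounts of Subread 2.0.3 and edgeR 3.40.2 with build mm10. The authors deposited raw, unscaled counts of every gene and library, with exon coordinates and exon length. Strand settings and the handling of reads with several alignments are not given in the sources used here. Columns were matched to samples by genotype and number.

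Counts were filtered with filterByExpr (minimum count 10, total 15), leaving 13296 genes, scaled by TMM and tested with edgeR 4.0.16 (glmQLFit with robust=TRUE and legacy=FALSE, glmQLFTest) in R 4.3.3, genotype being the only term, with Benjamini-Hochberg adjustment over all genes at 0.05. The members, lists and rules were chosen with earlier results of these data known. Named by rule were the members, up to 3 genes per direction of each list (at least 5 CPM, smallest p), Gata1, Ldb1, Cbfb, Spi1 and the 5 nearest profiles (at least 20 CPM). One gene that the rule names is not reported here. Other genes were named after their values were seen. Alternatives were median-ratio scaling, total counts, DESeq2 1.42.0, limma-voom (limma 3.58.1), no filter, a stricter filter (mean of 5 CPM and 1 CPM in 2 libraries), a block for the replicate number, each library left out and, added after the data were seen, the legacy quasi-likelihood method.

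No 50-base word of the GENCODE M21 transcripts of a member occurred in another member. For Runx1 0.47% of such words occurred, on either strand, in the gene Gm26626. For Fli1 0.292% occurred in other genes, and these were 428 in number. For Gata2, Tal1, Lyl1, Lmo2 and Erg the share was 0%.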

Additional observations from a re-analysis of the deposited data

How the results depend on the processing

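No member passed the threshold under any of the 12 alternatives, the lowest adjusted p over members and alternatives being 0.691, for Fli1 without WT replicate 2. Gata2, Runx1, Lyl1, Erg and Fli1 kept their direction in all 12, with 1 library left out at a time giving -0.24 to -0.05 for Gata2, -0.17 to -0.07 for Runx1 and 0.02 to 0.15 for Erg. The Tal1 log2 fold change turned to 0.10 (0.0951) without WT replicate 1 and to 0.16 (0.164) without p53R248W/+ replicate 2, and the Lmo2 value turned to -0.05 (-0.0483) without p53R248W/+ replicate 1; otherwise both kept their direction. With 1 library left out at a time, Tal1 ran from -0.40 (-0.396) to 0.16 and Lmo2 from -0.05 to 0.31 (0.310). With scaling, filter, tool or block changed, the values of the members ran from -0.35 for Fli1 to 0.18 for Lyl1. Over all genes, DESeq2 called 6 where the main test called 0 (edgeR quasi-likelihood test, with 780 at an unadjusted p under 0.05), and the cause was not tested. Leaving out 1 library gave 0 to 1 calls, the single call being Usp33 without p53R248W/+ replicate 2, and between 336 and 1083 genes at an unadjusted p under 0.05, in fits where the lone library of a genotype is assumed to vary like the other group. With the replicate block 0 genes passed, and Fli1 was at -0.35 (adjusted p = 0.791, edgeR quasi-likelihood test). The numbers are not shown to pair the libraries: the deviations of WT replicate 1 and p53R248W/+ replicate 1 from their group means correlated at r = 0.0049 across 13296 genes. Lyl1, with the fewest counts among the members, had the largest standard error at 0.31, and the part of depth in it was not tested.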
